A study of Homo sapiens with 30 samples.

Results

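The 42 interferon-stimulated genes described here are genes that cells switch on when they sense interferon, among 59792 genes of the RefSeq annotation of GRCh38.p14. They were taken from a list of gene symbols, with no threshold on a measured value. The list was chosen with earlier results of these data known. Every peak of H3K4me3 or H3K27ac that overlapped one of the genes or lay within 2000 bp of it was counted as theirs. That gave 40 of 21268 H3K4me3 peaks and 77 of 63580 H3K27ac peaks. A peak that reached within 1000 bp of an annotated transcription start was called a promoter peak, and the rest were kept apart as other peaks, most of them inside the genes. For 9 genes the start was not given by the tables used (IFIT2, IFITM2, MX2, OAS2, OASL, IRF7, DHX58, USP18 and TRIM22), and either end of the gene served instead.

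Type I interferon binds its receptor on the cell surface and activates the kinases JAK1 and TYK2, which phosphorylate transcription factors such as STAT2. STAT2 and IRF9 are subunits of a complex that binds the interferon-stimulated response element (ISRE) in the promoters of the target genes, while type II interferon acts mainly through the GAS element. The products sense viral RNA (IFIH1, DHX58), degrade or bind it (the OAS and IFIT families), block viral entry or release (IFITM proteins, BST2), or feed back on the pathway (USP18, IRF7), and in B-cell lymphoma the same genes serve as a readout of an interferon response within the tumour cell.

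The cells were OCI-Ly1, a line from a human diffuse large B-cell lymphoma, so all groups are 1 line. They received JIB-04, a small molecule that inhibits Jumonji histone demethylases, at 150 nM or at 500 nM, or the solvent DMSO alone. The time of exposure is not given in the sources used here. Each of the 3 treatments had 2 libraries of chromatin immunoprecipitation followed by sequencing (ChIP-seq) for H3K4me3, a mark of active promoters, and 2 for H3K27ac, a mark of active promoters and enhancers. Of 30 libraries in the series these 12 were used, and RNA was not among the measurements used, so the values below are histone marks and not expression. The labels number the replicates without saying whether they were separate cultures, and p-values therefore measure only the spread between these libraries, which may be technical.

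Counts in peaks summed to 9686420 to 12327122 per H3K4me3 library and 4360660 to 5410292 per H3K27ac library, with a median count per peak of 263 to 328 and of 21 to 24. Levels are in CPM, each library's counts scaled to a common total over its tested peaks after TMM normalization, and are divided by peak length (CPM per kb) where genes are compared with each other. All 8 B-cell marker genes that were looked up had promoter peaks of both marks, at 21.9 to 47.4 CPM per kb of H3K4me3 in DMSO. Among 10 markers of T cells, myeloid or erythroid cells, liver, epithelium and fibroblasts, 3 had a promoter peak of H3K4me3 (CD3D, CD14 and COL1A1, at 4.73 to 7.77 CPM per kb) and 2 of H3K27ac. The H3K4me3 libraries at 150 nM differed from each other by no more than sampling noise (chi-square per degree of freedom 0.923), but so did DMSO replicate 1 and 150 nM replicate 1 (0.952), and all were kept as separate samples. In H3K27ac the 150 nM libraries differed from each other more (2.39) than 150 nM replicate 1 did from DMSO replicate 1 (1.28), while the pairs of DMSO and of 500 nM were at 1.32 and 1.25.

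The sequences around the starts show what the genes share apart from the choice of the list. RefSeq promoters, from 250 bases before the start to 50 after it, were at hand for 33 of the 42 genes. An ISRE core was searched as the 4 bases GAAA followed, after any 2 bases, by the same 4 bases again, and a GAS element as TTCNNNGAA, each on both strands. Matches of the ISRE core and of GAS may overlap. The ISRE core was present at 23 of the 33 genes (69.7%), against 4.38% of the 27305 genes with such promoters, and at 5 of 32 other genes of the interferon pathway (15.6%). GAS was present at 9 of the 33 (27.3%), against 9.38% of all genes and 28.1% of the other pathway genes. Over single promoters the shares were 61.4% against 3.57% for the ISRE core and 22.7% against 7.66% for GAS. A match describes these letters and is not a measured binding site.

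Promoters of 5 genes are shown because the results turn on them: RSAD2 and BST2 had the H3K4me3 changes against DMSO that passed under every setting tried, IRF1 rose and holds a GAS match, ISG15 carried one of the high H3K4me3 levels, and IFIT1 had no promoter peak. Each runs 5′ to 3′ along the gene's strand from RefSeq GRCh38.p14, with capitals on matches of the ISRE core or GAS. They lie at chr2:6865635-6865934 (plus strand) for RSAD2, chr19:17405581-17405880 (minus) for BST2, chr5:132490724-132491023 (minus) for IRF1, chr1:1013247-1013546 (plus) for ISG15 and chr10:89392373-89392672 (plus) for IFIT1.
RSAD2: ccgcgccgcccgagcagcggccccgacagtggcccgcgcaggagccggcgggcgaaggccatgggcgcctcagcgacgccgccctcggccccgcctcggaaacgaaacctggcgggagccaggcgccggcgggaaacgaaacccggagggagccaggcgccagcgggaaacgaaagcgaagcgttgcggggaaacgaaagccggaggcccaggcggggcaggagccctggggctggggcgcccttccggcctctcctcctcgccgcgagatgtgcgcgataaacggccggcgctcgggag
BST2: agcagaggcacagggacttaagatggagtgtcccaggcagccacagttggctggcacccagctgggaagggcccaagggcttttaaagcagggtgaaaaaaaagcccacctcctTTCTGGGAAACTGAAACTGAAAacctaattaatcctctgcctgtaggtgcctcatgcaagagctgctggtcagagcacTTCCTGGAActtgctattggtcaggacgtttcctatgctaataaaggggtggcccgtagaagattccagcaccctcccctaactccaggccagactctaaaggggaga
IRF1: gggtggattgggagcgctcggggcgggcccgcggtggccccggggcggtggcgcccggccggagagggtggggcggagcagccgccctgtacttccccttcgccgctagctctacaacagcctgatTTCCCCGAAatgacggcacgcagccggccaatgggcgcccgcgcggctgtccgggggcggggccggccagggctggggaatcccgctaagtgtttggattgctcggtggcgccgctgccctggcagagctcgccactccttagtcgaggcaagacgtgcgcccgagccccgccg
ISG15: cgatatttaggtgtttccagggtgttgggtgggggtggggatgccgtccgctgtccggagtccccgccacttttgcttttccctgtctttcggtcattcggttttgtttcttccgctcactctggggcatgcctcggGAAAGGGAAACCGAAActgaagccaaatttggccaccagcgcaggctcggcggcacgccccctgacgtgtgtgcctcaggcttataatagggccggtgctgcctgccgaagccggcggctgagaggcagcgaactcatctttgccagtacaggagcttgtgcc
IFIT1: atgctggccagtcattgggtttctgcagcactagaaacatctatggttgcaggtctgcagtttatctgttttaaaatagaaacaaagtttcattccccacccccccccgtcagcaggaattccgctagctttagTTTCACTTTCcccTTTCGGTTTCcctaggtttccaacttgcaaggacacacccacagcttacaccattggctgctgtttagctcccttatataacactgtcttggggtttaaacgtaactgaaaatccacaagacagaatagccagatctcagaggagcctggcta
The RSAD2 window has no match and is 75.3% G and C. It does hold repeats of GAAA with a single base between them, which the search did not count. A second annotated start of the gene, at 6877777 on chromosome 2, has an ISRE core 145 bases before it. In BST2 a pair of overlapping ISRE cores starts 130 and 124 bases before the start and runs into a GAS match at 136, with another GAS match at 58. ISG15 has ISRE cores at 113 and 107 bases before its start, and IFIT1 has them at 116 and 103, on the opposite strand. IRF1 has no ISRE core and has its GAS match 124 bases before the start.

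Promoter peaks of both marks were found at 31 of the 42 genes. USP18, a protease that removes ISG15 from proteins and dampens receptor signalling, and OASL, an OAS-like protein, had a promoter peak of H3K4me3 only. IFIT3, a partner of IFIT1 in binding viral RNA, had one of H3K27ac only. No promoter peak of either mark was called at 8 genes: HERC5, the ligase that attaches ISG15 to proteins, IFIT1, the membrane proteins IFITM1, IFITM2 and IFITM3, and the interferon-induced genes IFI27, IFI44 and IFI44L. For these genes no count of either mark at the promoter is given by the tables, so they enter no comparison. PARP9 and DTX3L, a divergent gene pair, shared 1 promoter peak of each mark. The promoter peak overlapped another gene as well in 9 of 34 cases for H3K4me3 and 12 of 43 for H3K27ac, among them RSAD2 with CMPK2, BST2 with BISPR and MVB12A, IFIH1 with GCA, and IFIT2 and IFIT5 with LIPA, and those counts cannot be split between the genes.

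Every one of the 8 genes with a known promoter sequence and no H3K4me3 promoter peak (HERC5, IFI27, IFI44, IFI44L, IFIT1, IFIT3, IFITM1 and IFITM3) held an ISRE core, against 15 of the 25 genes with such a peak. With the share of G and C averaged over the promoters of a gene, the median was 46.9% in those 8 genes, with a range from 36.9% to 60.7%, and 55.7% in the 25, with a range from 34.3% to 73.7%. Over all genes the median was 58.3%. These are descriptions of a small set and were not tested.

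In DMSO the members' H3K4me3 was mostly below that of the usual promoter. The highest promoter peak of each gene had a median of 19.2 CPM per kb over 32 distinct peaks, and 5 of the 32 lay above the median of all 10710 peaks near a gene start, which was 30.9 with quartiles of 16.9 and 40.4. The highest levels were those of ADAR, the enzyme that edits adenosine in double-stranded RNA, at 52.4 ± 1.73 CPM per kb (SD, n = 2), TRIM21, a cytosolic antibody receptor, at 42.4, and IRF1, a transcription factor induced by both interferon types, at 39.8. The lowest were XAF1, a pro-apoptotic interferon target, at 2.06, IFIT2 at 2.95 and OASL at 3.08 CPM per kb. The members thus ran from peaks far under the lower quartile of promoters to some above the upper quartile.

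H3K27ac placed the members nearer to the other promoters. The median over 31 distinct peaks was 12.9 CPM per kb, and 13 of them exceeded the median of 12285 peaks near a gene start, 14.5 with quartiles of 10.4 and 18.8. OAS2 and OAS3 were highest in H3K27ac, at 22.5 and 20.0 CPM per kb, followed by ISG15 and IFI35, both at 19.6, and IFIT2, IFIT3 and IFIT5 were lowest, at 3.60, 3.94 and 4.50. The OAS genes, which make the second messenger that activates RNase L, had H3K4me3 levels of 20.1 (OAS1), 26.9 (OAS2) and 18.9 (OAS3) CPM per kb. IFIT5 had an H3K4me3 level of 26.0 CPM per kb beside its low H3K27ac.

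**Figure D1:**
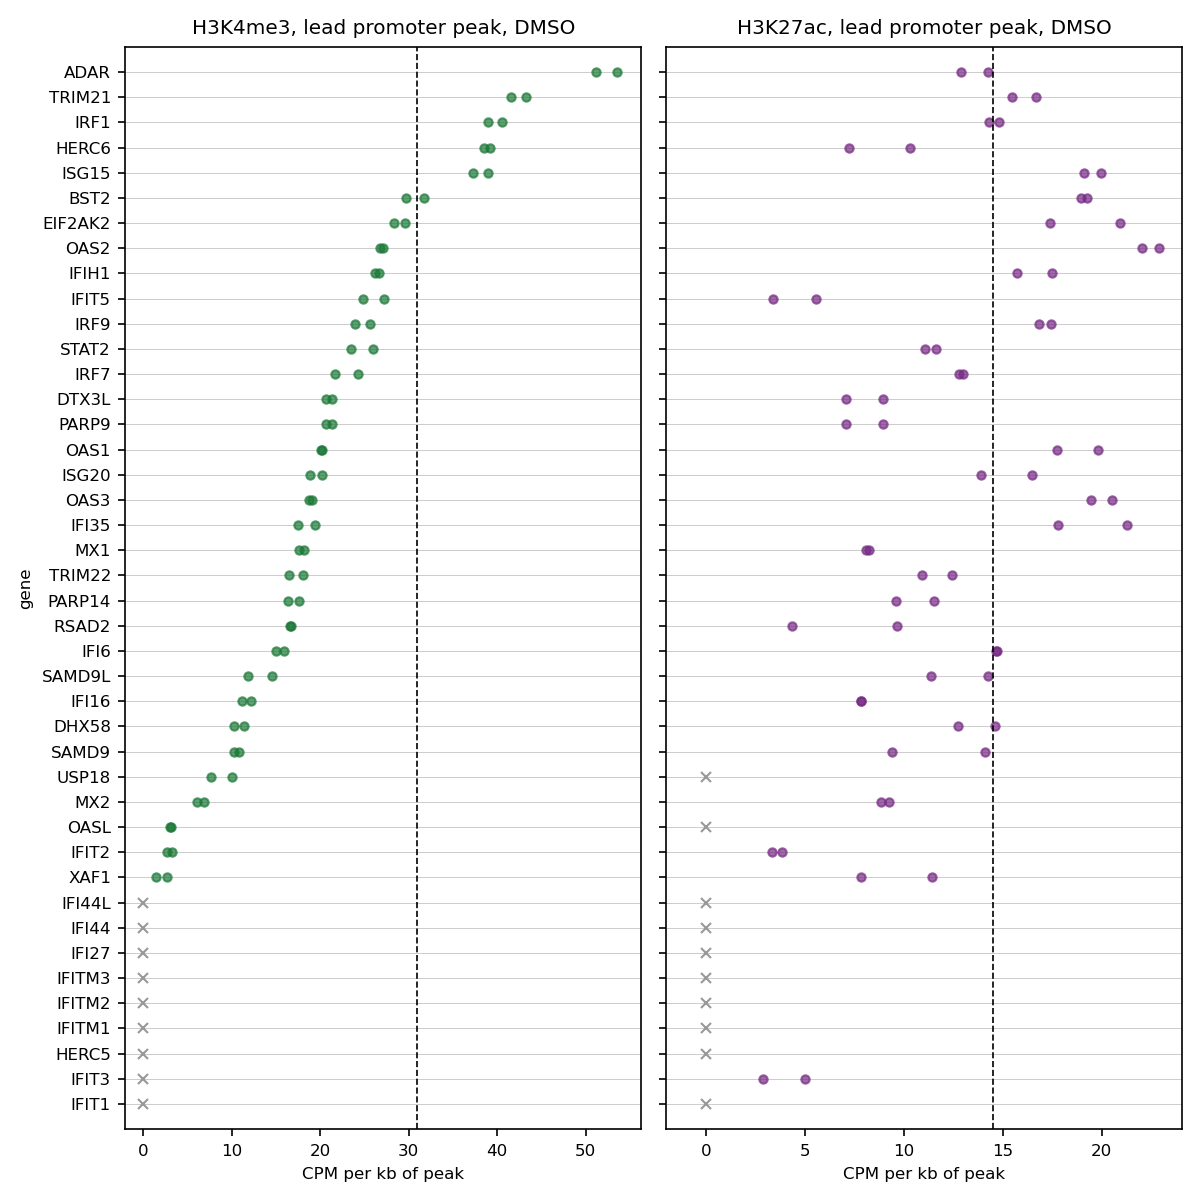
H3K4me3 (left) and H3K27ac (right) in DMSO at the promoter peak with the highest count of each of the 42 genes, in CPM per kb of peak; each point is 1 of 2 libraries, crosses at 0 mark genes without a promoter peak, and the dashed line is the median of all peaks near a gene start. In H3K4me3 most genes lie left of the line, from XAF1 at 2.06 up to ADAR at 52.4, while in H3K27ac 13 of 31 distinct peaks exceed it.

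Relative to all peaks, the H3K4me3 of most interferon-stimulated promoters at 500 nM JIB-04 stayed close to its DMSO level. The few that changed moved in both directions. A change common to all peaks is removed by the TMM scaling and would not be seen. The peak over the starts of RSAD2 and CMPK2 rose by the widest margin over its error. BST2 and DHX58 fell. None of the OAS family promoters passed the test, though OASL came near (log2 fold change 0.68, edgeR adjusted p = 0.060). Of 34 promoter peaks, 9 passed an adjusted p of 0.05 (26.5%; edgeR quasi-likelihood test with Benjamini-Hochberg adjustment over all tested peaks), 5 higher and 4 lower. With scaling by total count 9 peaks passed as well, 7 higher and 2 lower, but not the same 9. PARP9/DTX3L (0.21) and PARP14 (0.18) were then also called higher, and part of the lower calls were lost. The background was larger: 39.4% of all 20402 tested H3K4me3 peaks passed, 20.7% higher and 18.7% lower, and of 10602 tested peaks near a gene start 39.5% passed, 18.4% higher and 21.2% lower. The members' share was therefore not above that of promoters in general. Their median log2 fold change was 0.05, against -0.03 for peaks near a gene start, and 29 of the 34 changed by less than 0.3 on the log2 scale. Without DMSO replicate 2 the count fell to 3, without 500 nM replicate 1 to 4, and DESeq2 called 2 of the 34 (3479 of all peaks). In the same comparison 6 of the 8 B-cell markers were lower, from -0.13 (PAX5) to -0.34 (CD79B, edgeR adjusted p = 2.13e-14), and of the 3 other markers with a peak CD14 was higher, from 10.7 to 17.2 CPM (0.67, edgeR adjusted p = 1.58e-05). Their part in the members' values was not tested.

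RSAD2 encodes viperin, a radical enzyme that makes a chain-terminating nucleotide against viral polymerases. Its promoter peak (chromosome 2, 6864859 to 6866563, GRCh38), over the G and C-rich start shown above, had 28.2 and 28.5 CPM with DMSO, 27.7 and 25.5 with 150 nM, and 55.2 and 54.9 with 500 nM. Both 500 nM libraries lay far above all 4 others, and the 150 nM libraries lay just under those of DMSO. Against DMSO, the log2 fold change at the high dose was 0.96 ± 0.10 (SE), with edgeR adjusted p = 1.01e-18, and it passed the threshold in all 14 alternative settings, between 0.93 and 0.99. The peak also covers the start of CMPK2, a mitochondrial nucleotide kinase next to RSAD2 that is itself interferon-induced. At the second annotated start of RSAD2, the one with the ISRE core, no peak of either mark was called. The gain is therefore that of the peak shared with CMPK2, whose counts cannot be split between both genes.

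XAF1 had a small peak at its start (chromosome 17, 6755791 to 6756273). Its counts were 16 and 7 with DMSO, 7 and 9 with 150 nM, and 34 and 20 with 500 nM, which is 1.31 and 0.69, 0.63 and 0.84, and 2.89 and 2.04 CPM. The 500 nM values lay above the rest, at a level still among the lowest of the members. The peak passed the low-count filter only through its 500 nM libraries, because among the others DMSO replicate 1 alone reached the filter's level. The log2 fold change was 1.28 ± 0.39 with edgeR adjusted p = 0.0044, and the call held in 9 of 13 settings. It was lost without DMSO replicate 2 (0.93), without 500 nM replicate 1 (0.99), with loess offsets on abundance (0.73) and under DESeq2 (1.30, adjusted p = 0.135).

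The other gains were small. MX1, a GTPase that traps viral nucleocapsids, had 30.4 and 29.5 CPM with DMSO, 28.3 and 29.1 with 150 nM, and 34.6 and 34.8 with 500 nM at the peak over one of its later starts (chromosome 21, 41425655 to 41427330). IRF1 had 107.8 and 103.5 CPM with DMSO, 106.4 and 104.6 with 150 nM, and 116.1 and 116.8 with 500 nM (chromosome 5, 132488941 to 132491596). In both genes the 500 nM libraries were above all others, by log2 fold changes of 0.21 ± 0.08 (MX1, edgeR adjusted p = 0.018) and 0.14 ± 0.04 (IRF1, edgeR adjusted p = 0.0048) against DMSO. SAMD9L, an antiviral protein that restricts translation, had 27.4 and 22.3 CPM with DMSO, 29.2 and 26.6 with 150 nM, and 30.6 and 27.3 with 500 nM (chromosome 7, 93146700 to 93148583). Its groups overlapped, and the log2 fold change of 0.22 ± 0.09 (edgeR adjusted p = 0.043) held in 7 of 14 settings. Its value dropped to 0.09 without DMSO replicate 2 and to 0.12 without 500 nM replicate 1, and the call was also lost without either 150 nM library (0.21). The calls held in 8 of 14 settings for MX1, which lost it without any one of the DMSO and 500 nM libraries (0.19 to 0.23), and in 12 of 14 for IRF1, which lost it without DMSO replicate 2 (0.11).

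The losses were led by DHX58, also called LGP2, an RNA helicase that tunes sensing by RIG-I and MDA5. The promoter peak (chromosome 17, 42111910 to 42113068) had 13.2 and 11.9 CPM with DMSO, 14.2 and 14.3 with 150 nM, and 8.84 and 8.27 with 500 nM. The 500 nM libraries lay below the other 4, with a log2 fold change of -0.55 ± 0.15 (edgeR adjusted p = 0.0011). A second peak, inside the gene at 42107562 to 42108684, had 11.1 and 10.8 CPM with DMSO, 10.8 and 10.6 with 150 nM, and 8.84 and 7.25 with 500 nM. It was also lower, by -0.43 ± 0.15 (edgeR adjusted p = 0.016), and was the 1 of 6 other peaks of H3K4me3 called in this comparison. Without DMSO replicate 1 or without 500 nM replicate 2, 0 of the other peaks passed. The promoter call of DHX58 held in 13 of 14 settings, missing under DESeq2 at an adjusted p of 0.055.

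BST2, or tetherin, holds budding virions at the cell surface. Its promoter peak (chromosome 19, 17404316 to 17408112), over the promoter with a pair of ISRE cores shown above, had 120.4 and 112.7 CPM with DMSO, 126.9 and 122.6 with 150 nM, and 99.6 and 95.6 with 500 nM. The 500 nM libraries were the lowest of the 6, and the log2 fold change of -0.26 ± 0.05 (edgeR adjusted p = 1.21e-06) passed in all 14 settings. BISPR, a noncoding gene transcribed next to BST2, and MVB12A also start under this peak.

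TRIM21 had 55.8 and 58.1 CPM with DMSO, 57.1 and 56.8 with 150 nM, and 49.9 and 53.5 with 500 nM. The log2 fold change was -0.14 ± 0.06 (edgeR adjusted p = 0.044), with 500 nM below both other groups, and held in 7 of 14 settings. It was lost without DMSO replicate 1 (-0.18), DMSO replicate 2 (-0.12) or 500 nM replicate 1 (-0.09). ADAR has promoter peaks at separate starts. The one at the more distal start (154626625 to 154628384 on chromosome 1), which has the higher count, had 90.0 and 94.3 CPM in DMSO against 87.7 and 94.9 at 500 nM, a log2 fold change of -0.01 ± 0.05, and the groups overlapped. The one further into the gene (154607048 to 154609481), named here after its value was seen, had 76.0 and 78.6 CPM with DMSO, 70.7 and 70.1 with 150 nM, and 69.7 and 70.3 with 500 nM. It was lower at 500 nM by -0.14 ± 0.05 (edgeR adjusted p = 0.017; 9 of 14 settings), and the 150 nM libraries were as low as those of 500 nM. The call was lost without DMSO replicate 2 (-0.12) or 500 nM replicate 1 (-0.14).

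**Figure D2:**
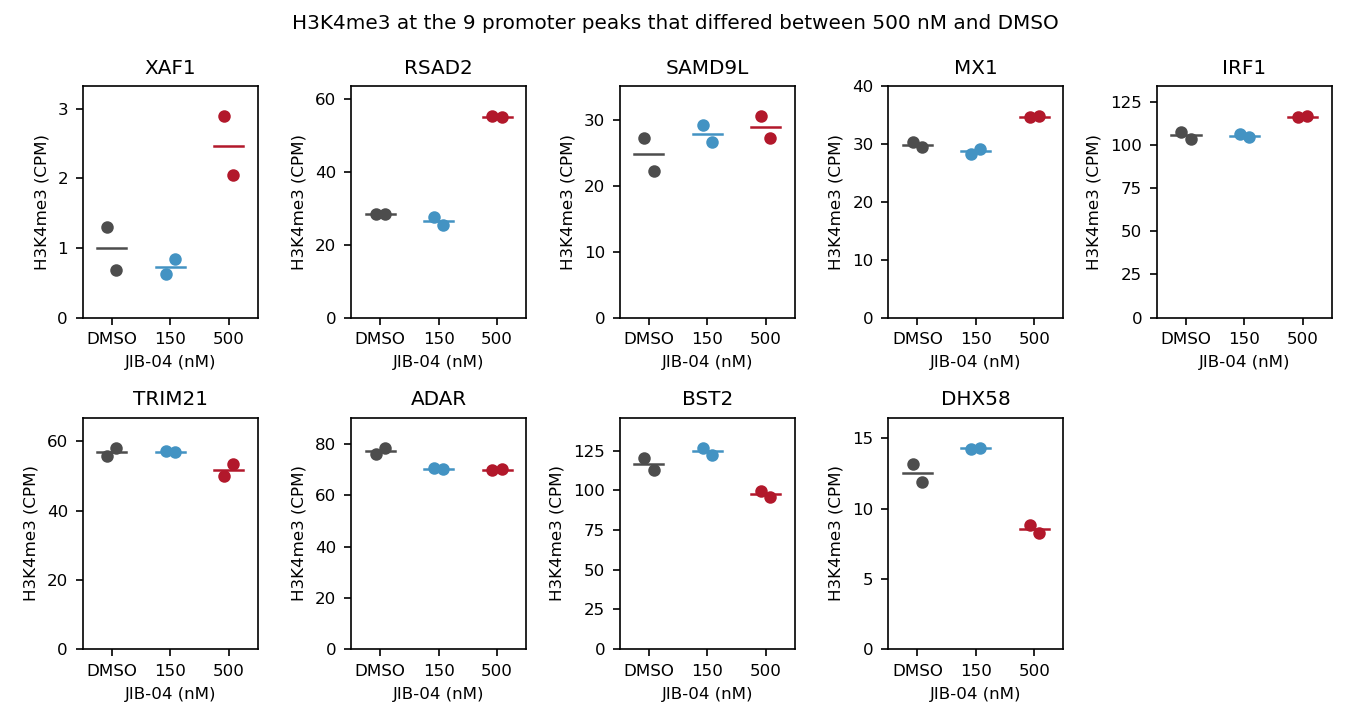
H3K4me3 in CPM at the 9 promoter peaks called between 500 nM JIB-04 and DMSO, with 1 point per library and a bar at the mean of the 2 libraries; each vertical axis starts at 0. RSAD2 stands at 55.2 and 54.9 CPM at 500 nM against 28.2 and 28.5 in DMSO, the DMSO and 500 nM points of SAMD9L overlap, and ADAR is as low at 150 nM as at 500 nM.

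The members not called at 500 nM can be read by role. Among the 9 sensors and signal transducers all had a promoter peak, and apart from IRF1, DHX58 and the inner ADAR peak their log2 fold changes ran from -0.07 to 0.13. IRF9 and STAT2, which act together at the ISRE, were at -0.07 ± 0.08 and -0.02 ± 0.05, and the RNA sensor IFIH1 (MDA5) was at -0.07 ± 0.04. EIF2AK2, the kinase PKR that stops translation on double-stranded RNA, was at 0.01 ± 0.06, with an interval from -0.11 to 0.13. Of the 7 promoter peaks of RNA effectors none passed, and their log2 fold changes ran from 0.02 (OAS1 and OAS2) to 0.68 ± 0.30 (OASL, edgeR adjusted p = 0.060).

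OASL had 1.88 and 1.87 CPM with DMSO, 2.24 and 2.23 with 150 nM, and 3.32 and 2.65 with 500 nM. IFIT2 had 1.55 and 1.28, 1.70 and 1.12, and 1.87 and 2.04 CPM in the same order, with a log2 fold change of 0.45 ± 0.36. In both genes the 500 nM libraries were the highest, at mean counts of 26.0 for OASL and 17.5 for IFIT2, and neither passed the test. The ISG15 promoter had 87.4 and 91.3 CPM in DMSO against 84.9 and 81.9 at 500 nM, lower by -0.09 ± 0.05 (edgeR adjusted p = 0.097). MX2 and USP18, both at low levels, were at 0.27 ± 0.17 and 0.24 ± 0.14. USP18 was at 0.46 and called without DMSO replicate 1 (edgeR adjusted p = 0.0285).

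**Figure D3:**
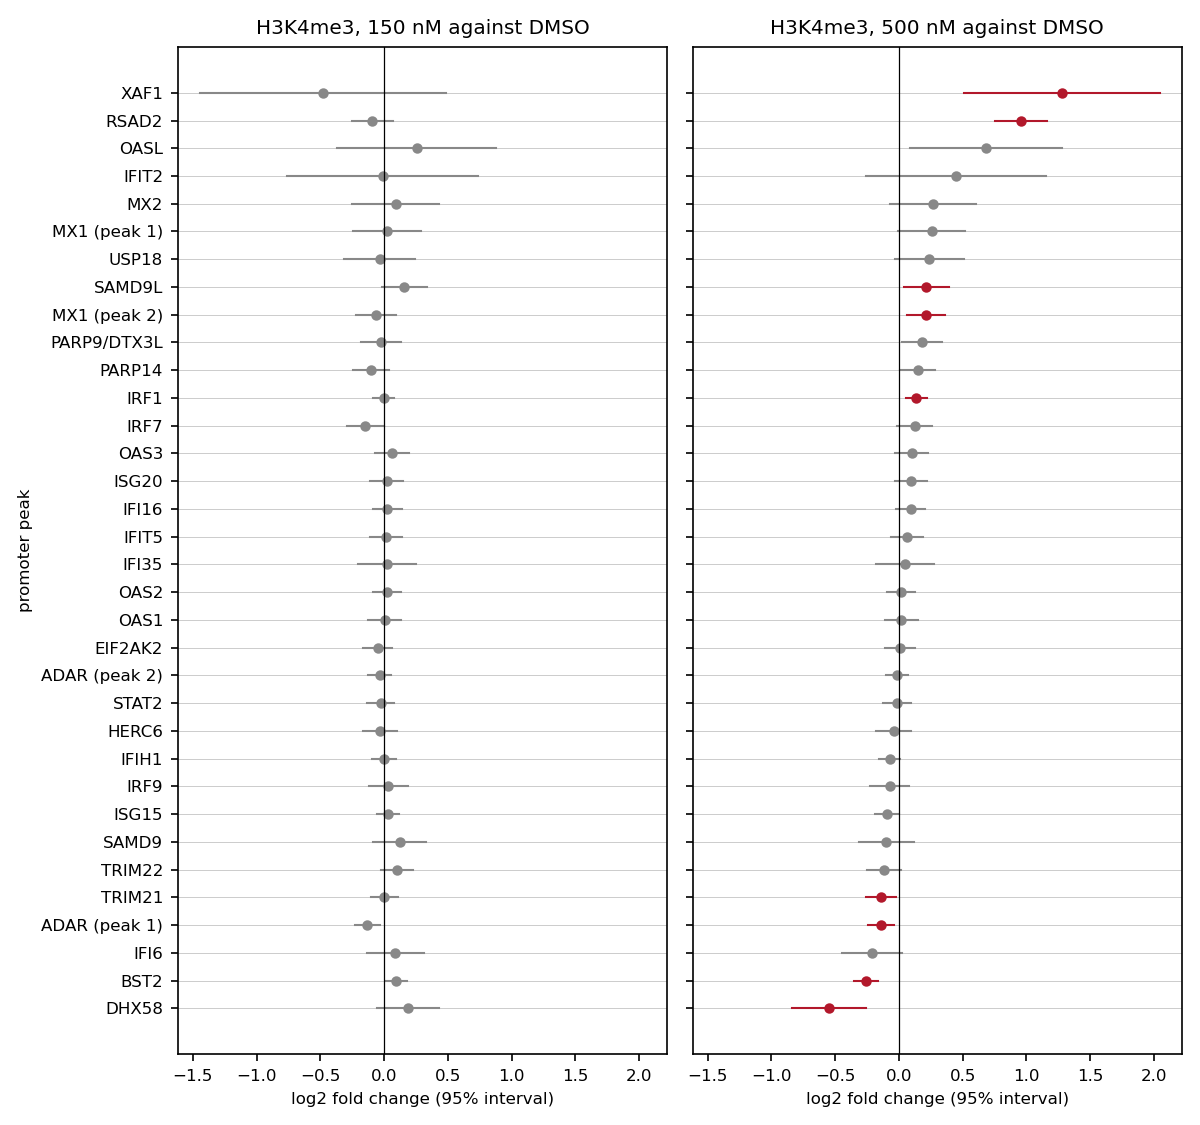
Log2 fold change of H3K4me3 with its 95% interval at the 34 promoter peaks, for 150 nM (left) and 500 nM (right) against DMSO, ordered by the change at 500 nM; red marks an edgeR adjusted p under 0.05. At 500 nM 9 peaks are red, from XAF1 at 1.28 to DHX58 at -0.55, most of the others lie near 0, and at 150 nM 0 are red.

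The level of a peak goes with its fold change across all H3K4me3 peaks, so the members were set beside peaks of like count. When all tested peaks were divided into quintiles by count, the median log2 fold change at 500 nM was 0.44 in the lowest quintile, 0.20, 0.02 and -0.04 in the next, and -0.06 in the highest. The members' promoter peaks followed in the same order, with medians of 0.68 (3 peaks), 0.25 (4), 0.08 (16), -0.02 (8) and -0.07 (3). RSAD2, SAMD9L and MX1 lay in the middle quintile, where 29.1% of all peaks were called higher. XAF1 lay in the lowest, where 26.1% were called higher, and DHX58 in the second, where 12.8% were called lower. BST2 and IRF1 lay in the highest quintile, where 34.2% were called lower and 4.8% higher. With offsets fitted to abundance by loess, 5 of the 34 peaks passed, 2 higher and 3 lower, and RSAD2 and BST2 were among them. The share of all peaks that passed with those offsets is not given here.

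Against the 150 nM libraries, which share the 500 nM samples with the comparison above, 13 of 34 promoter peaks passed at 500 nM, 7 higher and 6 lower (7 and 3 with scaling by total count), and 2 of 6 other peaks, 1 in each direction. The background was 20.5% of all tested peaks higher and 18.6% lower. By DESeq2 3473 of all tested peaks passed, against 7988 by edgeR. RSAD2 was higher by 1.05 ± 0.11 (edgeR adjusted p = 4.94e-20), XAF1 by 1.76 ± 0.44 (edgeR adjusted p = 0.00033) and IRF1 by 0.14 ± 0.04. IRF1 was not called without 150 nM replicate 2 (0.13). DHX58 was lower by -0.73 ± 0.15 (edgeR adjusted p = 1.16e-05) and BST2 by -0.35 ± 0.05 (edgeR adjusted p = 3.74e-10). SAMD9L and the inner ADAR peak, called against DMSO, were not called here, at 0.06 ± 0.09 and -0.01 ± 0.05. The promoter count was 8 without either 150 nM library and 4 by DESeq2. For the other peaks it was 0 by DESeq2 and 0 without 150 nM replicate 1, and 1 without any of 150 nM replicate 2, 500 nM replicate 1 or 500 nM replicate 2.

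Several genes passed here and not against DMSO, without a test of the difference between both comparisons. Under some settings part of them passed against DMSO too: PARP9/DTX3L with total-count scaling, at a mean count of at least 50, with the replicate block and without 500 nM replicate 2 (0.31, edgeR adjusted p = 0.0024), PARP14 with the first 2 of these, and the IFI6 promoter with loess offsets. IRF7, the factor that amplifies interferon production, had 32.7 and 33.9 CPM at 150 nM against 40.4 and 40.0 at 500 nM, with DMSO between them at 35.0 and 39.1. Its log2 fold change was 0.27 ± 0.07 (edgeR adjusted p = 0.0012). PARP14, a mono-ADP-ribosyltransferase, had 33.4 and 35.0 CPM at 150 nM against 40.5 and 41.0 at 500 nM, a log2 fold change of 0.25 ± 0.07 (edgeR adjusted p = 0.0024), with DMSO at 38.1 and 35.2.

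The shared promoter of PARP9 and DTX3L, partners in ADP-ribosylation and ubiquitination at damaged DNA, was higher by 0.21 ± 0.08 (edgeR adjusted p = 0.029). Its libraries at 500 nM stood apart, at 38.5 and 31.0 CPM against 31.0 and 29.8 at 150 nM, and without 500 nM replicate 1 the value was 0.03 (not called). Leaving out either 150 nM library also ended that call (0.23 and 0.18), and PARP14 was lost without 150 nM replicate 1 (0.21). TRIM22, an antiviral ubiquitin ligase, was lower by -0.22 ± 0.07, ISG15 by -0.12 ± 0.05 and the IFI6 promoter by -0.30 ± 0.12 (edgeR adjusted p = 0.0051, 0.024 and 0.038). An other peak of IFI6, a mitochondrial antiviral protein, had 1.70 and 2.51 CPM at 150 nM and 3.83 and 3.17 at 500 nM, a log2 fold change of 0.74 ± 0.29 (edgeR adjusted p = 0.030). Single libraries decided each of these calls: TRIM22 was lost without 150 nM replicate 2 or 500 nM replicate 2, ISG15 without those or 150 nM replicate 1, the IFI6 promoter without 150 nM replicate 1 or 500 nM replicate 2, and the other IFI6 peak without 150 nM replicate 1 (0.48) or 500 nM replicate 1 (0.59). MX1 and TRIM21 also passed here, at 0.27 ± 0.08 and -0.14 ± 0.06, and TRIM21 was lost without either 150 nM library (-0.14 and -0.15) or without 500 nM replicate 1 (-0.09).

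At 150 nM against DMSO, which shares the DMSO samples with the first comparison, edgeR called 0 of 34 promoter peaks and 0 of 6 other peaks, and DESeq2 called 0 as well. The background was 0.0% of 20402 peaks. At an unadjusted p under 0.05 edgeR had 3 of the 34 promoter peaks (8.82%, against 4.66% of all peaks) and 0 of the other peaks. Those were ADAR at its inner start (-0.13), BST2 (0.10) and IRF7 (-0.15), named here after their values were seen. At RSAD2 the 95% interval of the change at 150 nM ran from -0.25 to 0.07 on the log2 scale, and at DHX58 from -0.06 to 0.43.

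In H3K27ac the edgeR fit gave no call at any member. At 500 nM against DMSO edgeR called 0 of 41 tested promoter peaks and 0 of 29 tested other peaks, with a background of 0.923% of 54037 peaks, and DESeq2 called 0 too. At an unadjusted p under 0.05 edgeR had 6 of the 41 promoter peaks (14.6%) and 6 of the 29 others (20.7%), against 11.5% of all peaks. At 150 nM it called 0 of both, with a background of 0.00185%, and unadjusted p-values under 0.05 numbered 0 and 3 (0.0% and 10.3%, against 3.94% of all peaks). For 500 nM against 150 nM it called 0 of both, with a background of 1.27%, and 2 and 5 by unadjusted p (4.88% and 17.2%, against 10.2% of all peaks). DESeq2 called 0 in those comparisons as well.

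These zeros come with wide errors. The median SE of the log2 fold change was 0.19 at the H3K27ac promoter peaks, against 0.07 in H3K4me3, and the median of the mean count per library was 77.5 against 414.8. At 32 of the 41 promoter peaks, and at 10 of the 29 others, the 95% interval lay within -1 and 1 on the log2 scale, so a doubling and a halving lay outside the interval there, which at the rest was not so. Across the promoter peaks 28 of 41 values were above 0 at 500 nM, and their median was 0.15 on the log2 scale. Of 11981 tested peaks near a gene start 7418 were positive, with a median of 0.07.

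The promoters that changed in H3K4me3 had H3K27ac values with no test passed. RSAD2 had 2.07 and 4.61 CPM of H3K27ac with DMSO, 2.55 and 2.45 with 150 nM, and 5.09 and 3.52 with 500 nM. These overlapped, and the interval of the log2 fold change ran from -0.44 to 1.12, which includes the H3K4me3 value. BST2 had 70.3 and 69.2 CPM with DMSO, 74.8 and 82.0 with 150 nM, and 74.6 and 80.0 with 500 nM. There the log2 fold change was 0.15 with an interval from -0.07 to 0.37, so the H3K4me3 value of -0.26 lay outside it. SAMD9L was at 0.36 ± 0.15 (edgeR adjusted p = 0.29), with both 500 nM libraries (41.3 and 38.9 CPM) above both of DMSO (34.9 and 27.9).

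Over the 31 overlapping pairs of promoter peaks with a value in both marks, 16 had the same sign at 500 nM against DMSO, and Spearman's rho was 0.29. The pairs share no library, but peaks of a gene are not independent, and the median SE of 0.19 in H3K27ac is larger than most of the H3K4me3 changes. Of the 9 pairs called in H3K4me3, 6 had the same sign in both marks; BST2, TRIM21 and ADAR were lower in H3K4me3 and above 0 in H3K27ac, where none passed the test. DHX58 was counted by the H3K27ac peak of larger overlap (-0.09 ± 0.26). Its other H3K27ac promoter peak, at 42112708 to 42113682, which also overlaps the H3K4me3 peak, had 12.4 and 14.2 CPM with DMSO and 17.5 and 18.4 with 500 nM, a log2 fold change of 0.42 ± 0.20 in the opposite direction (edgeR adjusted p = 0.378).

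**Figure D4:**
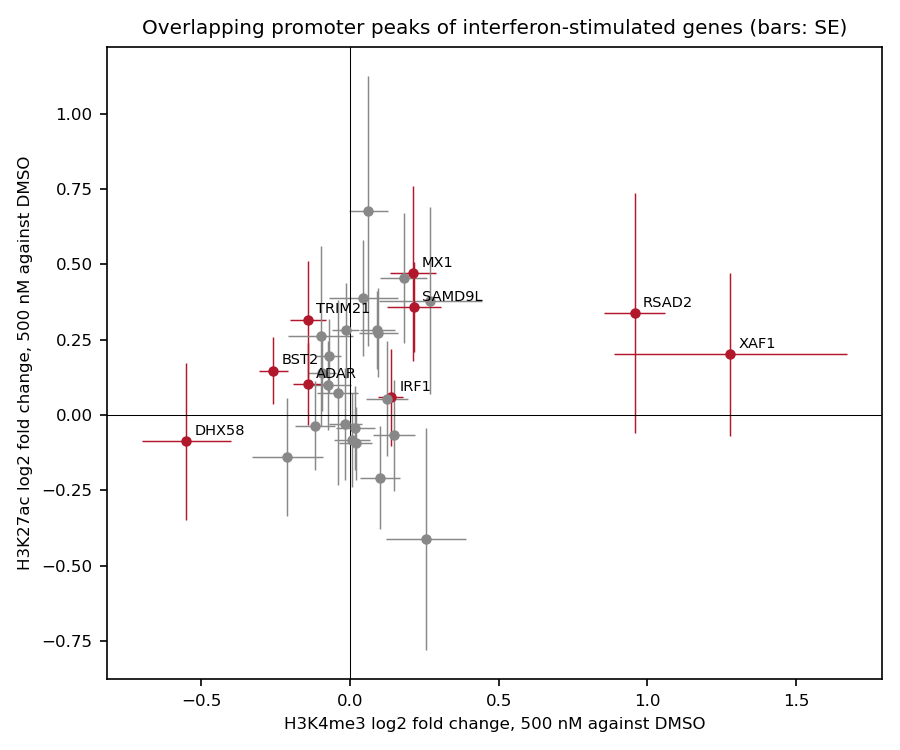
Log2 fold change at 500 nM against DMSO of H3K4me3 (horizontal) and H3K27ac (vertical) at 31 overlapping promoter peaks, with bars of 1 SE; red and named are the peaks called in H3K4me3. RSAD2 and XAF1 lie to the right with vertical bars of up to 0.40, and the vertical bars are longer than the horizontal ones at most points.

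Inside the OAS1 gene a row of H3K27ac peaks had the lowest adjusted p among the members, and is named here after its values were seen. The first, at 112925002 to 112926477 on chromosome 12, had 11.5 and 11.2 CPM with DMSO, 13.2 and 10.7 with 150 nM, and 20.2 and 17 with 500 nM. Both 500 nM libraries were above the other 4, with a log2 fold change of 0.71 ± 0.21, but edgeR adjusted p was 0.071. With the 4 libraries of this comparison alone it was 0.0056, and without 150 nM replicate 1 or replicate 2 it was 0.0058 and 0.0067. The next peaks along, starting at 112926734, 112927324 and 112928552, were at 0.77 ± 0.46, 0.72 ± 0.27 and 1.00 ± 0.36, none passing. At the OAS1 promoter the H3K27ac log2 fold change was -0.04 ± 0.14 and that of H3K4me3 was 0.02 ± 0.07.

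Promoters with and without the ISRE core had like median changes. Among genes with the core, 14 distinct lead promoter peaks of H3K4me3 had a median of 0.03 in log2 fold change at 500 nM, with 2 called higher (RSAD2 and MX1) and 2 lower (BST2 and TRIM21). Among the 10 without it, the median was 0.03 as well, with 3 called higher (XAF1, SAMD9L and IRF1) and 0 lower. For RSAD2 and MX1 the core lies at another annotated start than the one under the called peak. Genes counted as without the core can hold GAAA repeats with a single base between them, such as OAS1, XAF1, IFI16 and IFI35.

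The rest of the pathway gives the setting. A list of 40 other genes (ligands, receptors and kinases, transcription factors, sensors and adaptors, feedback genes) had 31 H3K4me3 promoter peaks at 29 genes. Of these peaks 15 were called at 500 nM against DMSO (48.4%), 5 higher and 10 lower. Among all tested peaks near a gene start 39.5% were called, 18.4% higher and 21.2% lower, and the difference was not tested. DESeq2 called 8 of the 31 pathway peaks, and 1811 of the 10602 near a gene start. The pathway peaks had a median count of 1016 and a median SE of 0.05, against 414.8 and 0.07 at the members' promoter peaks. Results of other settings are not given here for the pathway genes. At 150 nM 0 of the pathway peaks were called, with a background of 0.0%. IRF5, a factor of the Toll-like receptor pathway in B cells, went from 49.2 to 73.2 CPM (means, n = 2), a log2 fold change of 0.57 ± 0.07 (edgeR adjusted p = 2.16e-13). SOCS3, which inhibits JAK kinases, was higher by 1.24 ± 0.26 from 2.56 CPM.

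Lower were the Toll-like receptor adaptor TICAM1, by -0.37 ± 0.06, the receptor TLR9, by -0.41 ± 0.09, and IFNGR2, a chain of the type II receptor, by -0.21 ± 0.05. Of the 8 interferon genes looked up, IFNG alone had a promoter peak of H3K4me3, lower by -0.92 ± 0.19 from 10.5 to 5.63 CPM (edgeR adjusted p = 8.51e-06). IFNB1, IFNA1, IFNA2, IFNL1, IFNK, IFNE and IFNW1 had none. In H3K27ac 0 of 40 tested promoter peaks of these genes passed in edgeR. At 500 nM against DMSO 0.651% of all tested H3K27ac peaks near a gene start passed.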

How the data were processed

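Per the submitters' processing notes, reads were handled with Trim Galore 0.6.7, BWA 0.7.17-r1188, Picard 2.27.4 and MACS2 2.2.7.1 on GRCh38; whether peaks were called per sample or pooled is not given in the sources used here. The deposited values are raw counts per consensus peak, 1 column per library, made by the authors with featureCounts 2.0.1 per the file headers, which record the paired option although the labels give single reads of 50 bp. Coordinates are as deposited with 1 added to the start.

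All 6 libraries of a mark entered 1 edgeR 4.0.16 fit in R 4.3.3 (filterByExpr, TMM, glmQLFit, glmQLFTest) with the treatment as factor and Benjamini-Hochberg adjustment over all tested peaks. TMM removes any change common to all peaks. Standard errors were derived from the test's p, with 95% intervals. A gene's lead promoter peak has the highest mean count over the 6 libraries. The text names lead peaks called at 500 nM (up to 8 each way) and up to 4 other peaks, any peak called in another comparison, the 3 highest and 3 lowest levels, and genes without a peak. The members, the pathway and marker lists and the alternatives were chosen with earlier results of these data known. The fit was tested on simulated data with 200 peaks changed by 1 on the log2 scale at 500 nM. Against DMSO it recovered 78% of them in H3K4me3, with 11 of 167 calls false. In H3K27ac it recovered 35%, with 3 of 73 calls false, so across all H3K27ac peaks many changes of that size would be missed. The changed peaks were drawn from all tested peaks, with a median count of 30.3 in H3K27ac against 77.5 at the members' promoters. In the data 8034 H3K4me3 peaks were called, far more than the 200 changed here. These shares therefore do not give the recovery at the members. Alternatives included DESeq2 1.42.0, other scalings and filters, other promoter windows, a block for replicate number and leaving out each library. Exons and introns were not analysed here. Figures were drawn with matplotlib 3.10.9.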

Additional observations from a re-analysis of the deposited data

How the results depend on the processing

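Of 251 recomputed counts and medians, 220 stayed within 1.5 times the count or 1 SD between replicates, and 31 moved; of 347 recomputed values of 25 named peak results, 270 kept their direction and their side of the threshold, 77 kept the direction only, and 0 reversed. For H3K4me3 at 500 nM against DMSO the 9 promoter calls became 5 with loess offsets, 2 with DESeq2 and 5 at an adjusted p under 0.01, and ranged from 3 to 10 when 1 library was left out; the 1 other call became 0 with DESeq2 and at an adjusted p under 0.01, and ranged from 0 to 1. The median log2 fold change of the promoter peaks, 0.05, ranged from 0.0123 (without DMSO replicate 2) to 0.0864 (without DMSO replicate 1). For 500 nM against 150 nM the 13 promoter calls became 4 with DESeq2 and ranged from 8 to 13 with 1 library left out; the 2 other calls became 1 with total-count scaling, loess offsets or a mean count of at least 50, became 0 with DESeq2 or at an adjusted p under 0.01, and ranged from 0 to 2. The H3K27ac median of 0.15 became 0.086 at a mean count of at least 50 and 0.18 with a term that sets DMSO replicate 2 and 150 nM replicate 2 apart from the rest, as counts on unplaced contigs do. Samples with the same replicate number deviated together little (correlations from 0.0047 to 0.049 in H3K4me3 and 0.0026 to 0.13 in H3K27ac). The largest, 0.13, was between DMSO and 150 nM, whose replicate 2 libraries the term above sets apart. Low correlations cannot show whether the numbers pair the libraries. With the replicate block 1 other H3K27ac peak, in OAS1, passed at 500 nM against DMSO (edgeR adjusted p 0.021) and against 150 nM (0.036), in place of 0. The 4 libraries of the contrast alone also gave 1 other H3K27ac call, the term for that split gave 1 against 150 nM (XAF1, 0.030), and leaving out 1 library gave 0 to 1. Apart from alternatives that use fewer samples or test fewer peaks, the cause of these differences was not tested. Except for DESeq2, the share of all peaks called under each alternative is not given here. Whether the members' counts moved more than those of all peaks cannot be read from these values. H3K27ac counts, with a median of 21 to 24 per peak, limit what single peaks can show. At a mean count of at least 50 the XAF1 promoter peak and the other IFI6 peak were not tested and have no value.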
